A study of Homo sapiens with 15 samples.

Results

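The osimertinib-resistant subline H1975–OR, given 1,25(OH)2D3 (the hormonal form of vitamin D3), was compared with its parental line H1975, given vehicle. The comparison asks which RNA differences between the subline and its parent are still present after the hormone. It rests on 6 of the 15 libraries of the series, namely Samples 3a, 3b and 3c (H1975–OR, 1,25(OH)2D3) and Samples 1a, 1b and 1c (H1975, vehicle), which were chosen by their labels. Samples 2a, 2b and 2c (H1975–OR, vehicle) served as the reference for what the hormone changed within the subline.

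H1975 is a human lung adenocarcinoma line with mutant EGFR, the epidermal growth factor receptor, and both lines carry the same pair of EGFR mutations. H1975–OR is 1 subline, obtained by growing H1975 in 500 nM osimertinib, an inhibitor of mutant EGFR, and kept in that drug between experiments. All cultures of the comparison were treated in medium with charcoal-stripped serum for 96 h, with vehicle or 100 nM 1,25(OH)2D3 added at 0, 48 and 92 h, and RNA came from 3 separate passages. The series holds no hormone-treated H1975 group here, so the effect of the line and that of the hormone cannot be told apart within the comparison itself. The comparison shares Samples 1a, 1b and 1c with the vehicle comparison of the lines. The values of both are given side by side below for most gene lists and many genes, but not for every gene. Whether the hormone moved a gene was taken from its own test within H1975–OR.

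1,25(OH)2D3 binds the vitamin D receptor (VDR), a nuclear receptor that pairs with RXR on DNA elements built from copies of a hexamer close to AGGTCA. Its best known target is CYP24A1, the mitochondrial enzyme that inactivates the hormone. Epithelial-mesenchymal transition (EMT) is the loss of cell-cell junctions and epithelial splicing and transcription regulators together with a gain of matrix and cytoskeletal genes. EMT is 1 of the routes by which EGFR-mutant cells escape EGFR inhibitors.

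The estimated counts summed to between 4741807 and 5447793 in the H1975 libraries, to between 4724371 and 5240477 in vehicle-treated H1975–OR, and to between 4833034 and 6140120 in hormone-treated H1975–OR. A floor of 3 counts corresponded to between 0.486 and 0.651 CPM (counts scaled to library sizes corrected by TMM factors), and it covers counting error only. Sample 3a stood apart from the other libraries. Its mean correlation with its own group was 0.908, against 0.932 to 0.962 for the other 8 libraries, and mitochondrial genes took 1.54% of its counts, against at most 1.05%. The study left this library out. It is kept in the values below, and the counts and the genes described most closely are also given without it. Epithelial identity genes summed to between 3500 and 5550 CPM in the 9 libraries. The markers of other cell types PTPRC, CD3E, CD68, PECAM1, VWF, CDH5, HBB and ALB summed to between 19.1 and 46.1 CPM. CD3E was at 0 in every library. The alveolar markers NAPSA and SFTPB reached no more than 2.26 and 1.74 CPM in any library. EPCAM, a general epithelial marker, was itself among the genes that differed.

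Of 12325 genes tested, 2049 (16.6%) differed between 1,25(OH)2D3-treated H1975–OR and H1975 by edgeR's quasi-likelihood test at an adjusted p under 0.05. Of these, 993 were higher (8.06%) and 1056 lower (8.57%) in the hormone-treated subline, 1247 differed at least 2-fold and 517 at least 4-fold. Without Sample 3a, 2443 of 12513 genes (19.5%) were called, 1238 higher (9.89%) and 1205 lower (9.63%). The 2 fits shared 1783 calls, all with the same direction. Between the lines with vehicle, 1636 genes were called (13.3%), 760 of them higher (6.17%) and 876 lower (7.11%), and 2521 (20.1%) in the fit without Sample 3a. Without Sample 1b, 990 genes were called in the first comparison and 719 in the second. The plot of log2 fold changes with and without Sample 3a shows where that library decides the size of a difference.

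**Figure D1:**
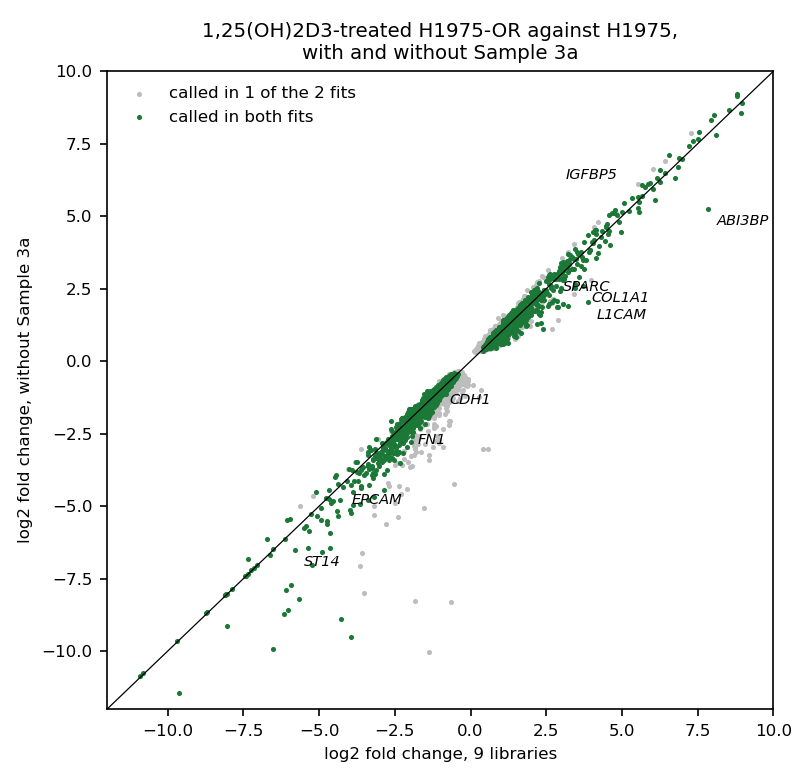
Each point is 1 gene, with its log2 fold change of hormone-treated H1975–OR against H1975 in the fit with Sample 3a on the horizontal axis and without it on the vertical axis, for genes called in at least 1 of the 2 fits. The 1783 genes called in both fits lie on the same side of 0, and COL1A1, ABI3BP and L1CAM were higher with Sample 3a than without it.

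Of the 1636 differences between the lines with vehicle, 1293 were also called, with the same sign, after 1,25(OH)2D3. Of these 594 were higher and 699 lower in the subline, and 1248 of the 1293 were obtained in the fit without Sample 3a too. For the 594 the median log2 difference from H1975 was 1.23 with vehicle and 1.32 with the hormone, and for the 699 it was −1.41 and −1.64. Only genes called again with the hormone entered these medians, so they do not show whether the 1636 differences as a whole grew or shrank. A further 337 differences (166 higher, 171 lower) were no longer called with the hormone, although only 2 of them, CDH1 and AFAP1L2, had also changed between hormone and vehicle by the test within H1975–OR. Falling short of the threshold therefore does not show that the others moved. For the 166 and the 171 the medians went from 0.851 to 0.56 and from −1.24 to −0.621, a fall that this choice of genes favours. The remaining 6, among them C15orf48, CRIP1, CYP24A1, LOX and MELTF, were lower than H1975 with vehicle and higher than H1975 with the hormone. In addition, 750 genes (393 higher, 357 lower) were called against H1975 with the hormone only. Without Sample 3a the corresponding numbers were 1842, 673, 6 and 595. Without Sample 1b 578 differences remained, and without Sample 2b 93 were no longer called with the hormone.

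Within H1975–OR, 1,25(OH)2D3 raised 17 genes (0.138% of those tested) and lowered none by edgeR, with 601 higher and 346 lower at an unadjusted p under 0.05. By DESeq2, 93 genes rose and 22 fell. Without Sample 3a, 19 rose by edgeR and 0 fell (456 and 454 at an unadjusted p under 0.05), and 13 genes were called in both fits. Without Sample 2b 4 genes were called. Of the 17, 9 had been lower in the subline than in H1975 with vehicle and were moved towards or past the H1975 level. They include the 8 genes CDH1, LAMB3, AFAP1L2, C15orf48, MELTF, LOX, CRIP1 and CYP24A1, which are described below, and all 9 were also obtained without Sample 3a, together with COL1A1, GEM, RAB27B, RHOF and TNFRSF1A. With the replicate letter as a block in the 6 H1975–OR libraries, 3 genes passed in all, among them CYP24A1 and MELTF of the 17, with edgeR adjusted p = 0.018 and 0.0402. The other 7 of the 9 had adjusted p values of 0.0608 to 0.0779 in that fit.

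For 6 of the 9 moved-back genes RefSeq (GRCh38.p14) gave the 250 bases before the start, some with more than 1 start, and 4 of those 6 genes had a VDR-type hexamer in a window. The letters searched on both strands were AGGTCA and AGGTGA, then GGGTCA and GGGTGA, then AGTTCA and GGTTCA, and 54.9% of all 27305 genes in the table have at least 1 of them in a window. The windows of MELTF, AFAP1L2 and CRIP1 are shown as those of moved-back genes with a match, written 5′ to 3′ along the gene with the matched letters in capitals. In MELTF an AGGTGA and an AGGTCA on the other strand overlap, at 49 and 46 bases before the start. Among genes with a window, 4 of 6 of the largest falls against H1975 and 5 of 9 of the largest rises, described below, also had a hexamer. A match is a description of the letters and not a bound site.
MELTF (chr3:197029818-197030067, minus strand): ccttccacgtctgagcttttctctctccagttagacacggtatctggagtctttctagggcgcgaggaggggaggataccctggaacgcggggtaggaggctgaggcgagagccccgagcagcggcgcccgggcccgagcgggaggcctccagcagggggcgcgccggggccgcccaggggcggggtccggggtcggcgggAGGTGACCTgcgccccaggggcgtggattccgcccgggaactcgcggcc
AFAP1L2 (chr10:114404503-114404752, minus strand): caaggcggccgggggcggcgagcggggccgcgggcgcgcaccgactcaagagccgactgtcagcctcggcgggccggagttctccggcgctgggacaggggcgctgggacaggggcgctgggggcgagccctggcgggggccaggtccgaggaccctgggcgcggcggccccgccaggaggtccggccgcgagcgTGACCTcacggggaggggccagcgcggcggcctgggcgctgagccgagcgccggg
CRIP1 (chr14:105486636-105486885, plus strand): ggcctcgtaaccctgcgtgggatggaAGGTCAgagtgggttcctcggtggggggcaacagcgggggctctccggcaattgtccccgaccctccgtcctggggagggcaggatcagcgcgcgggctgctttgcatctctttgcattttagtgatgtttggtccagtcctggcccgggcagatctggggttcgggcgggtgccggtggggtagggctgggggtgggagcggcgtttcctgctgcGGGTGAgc

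CDH1 encodes E-cadherin, the adhesion protein of adherens junctions, and lies at chr16:68737292-68835537 on the plus strand (GENCODE 44, GRCh38). Its level was 108, 238 and 383 CPM in H1975, fell to 9.51, 6.27 and 5.25 CPM in vehicle-treated H1975–OR, and stood at 108, 109 and 153 CPM after 1,25(OH)2D3. The vehicle-treated libraries were thus far below all others, while the hormone-treated ones lay at the low end of the parental range. The mean was 2.88% of the H1975 mean with vehicle and 50.7% with the hormone (53.9% without Sample 3a). The rise within H1975–OR was 4.14 ± 0.47 on the log2 scale (SE, edgeR adjusted p = 0.0132, and 0.024 without Sample 3a). It passed in 15 of 20 alternatives (adjusted p up to 0.149). It fell short without Sample 2b, without 2c and without both 3a and 2a. With a replicate block it fell short in the 6 H1975–OR libraries, and also in the fit without Sample 3a. Against H1975 the log2 difference that was left was −0.98 ± 0.39 (edgeR adjusted p = 0.118), which is not evidence of equality, since the 3 parental libraries themselves spanned 108 to 383 CPM.

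LAMB3, the beta chain of the basement membrane protein laminin-332, was the other epithelial gene among the 9. It measured 392, 506 and 516 CPM in H1975, 79.0, 109 and 108 CPM in the subline with vehicle and 225, 302 and 300 CPM with the hormone. The 3 groups did not overlap and the hormone-treated libraries lay between the others. LAMB3 stood at 20.9% of the H1975 mean with vehicle and at 58.4% with 1,25(OH)2D3, and it was still lower than in H1975 by 0.78 ± 0.19 on the log2 scale (adjusted p = 0.0202, edgeR). This call was lost without Sample 1b, without Sample 1c and in a fit of all 15 libraries, with adjusted p values up to 0.187. The rise from vehicle was 1.48 ± 0.19 (adjusted p = 0.0295 by edgeR) and passed in 10 of 20 alternatives, not without Sample 1b, 1c, 2a, 2b, 2c, 3b or 3c.

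CYP24A1 showed the largest response of the 17 genes. The gene lies at chr20:54153446-54173986 on the minus strand. It was at 25.8, 23.5 and 18.3 CPM in H1975, at 8.68, 3.34 and 4.86 CPM in H1975–OR with vehicle and at 1041, 878 and 1486 CPM with 1,25(OH)2D3. No libraries of different groups overlapped. The hormone-treated subline exceeded H1975 by 5.65 ± 0.35 on the log2 scale (edgeR adjusted p = 3.59e-05, and 9.09e-05 without Sample 3a) and vehicle-treated H1975–OR by 7.65 ± 0.39 (adjusted p = 5.63e-05). VDR itself was at 32.6, 25.3 and 29.9 CPM in H1975 and at 53.5, 36.5 and 38.9 CPM in hormone-treated H1975–OR, a log2 difference of 0.55 ± 0.21 that was not called (edgeR adjusted p = 0.0963).

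MELTF (melanotransferrin, an iron-binding surface protein) measured 84.1, 49.3 and 51.2 CPM in H1975, 25.0, 14.8 and 11.9 CPM with vehicle and 199, 98.7 and 119 CPM with the hormone. C15orf48, a mitochondrial protein related to NDUFA4, measured 28.9, 35.7 and 46.1 CPM, then 10.1, 10.4 and 13.6 CPM, then 105, 60.1 and 65.9 CPM. AFAP1L2, an adaptor protein of tyrosine kinase signaling, measured 35.7, 35.7 and 53.1 CPM, then 11.6, 10.2 and 13.4 CPM, then 73.6, 57.9 and 60.6 CPM. In each of the 3 genes the vehicle-treated libraries were the lowest and the hormone-treated ones the highest, with no overlap. Of all genes, 7.07% had every hormone-treated library above every vehicle-treated one. The choice of the 3 genes by their calls in these same libraries favours such an order. The means after the hormone were 226%, 209% and 154% of those of H1975. Against H1975, MELTF was called at edgeR adjusted p = 0.0462 and C15orf48 at 0.0228, while AFAP1L2 was not (0.0697). Without Sample 3a the adjusted p was 0.105 for MELTF, 0.0452 for C15orf48 and 0.132 for AFAP1L2. The rise within the subline was called for all 3 in both fits. It was lost for C15orf48 without Sample 2b and for MELTF without Sample 1b, 1c, 2b or 2c. Against H1975, C15orf48 also lost its call without Sample 1a or 1b, and MELTF without 1b, 1c, 2b or 3c.

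LOX, the lysyl oxidase that cross-links collagen, was at 66.7, 43.1 and 55.7 CPM in H1975, at 30.6, 33.2 and 31.7 CPM with vehicle and at 181, 132 and 139 CPM with the hormone. CRIP1, a small LIM-domain protein, was at 49.4, 56.9 and 45.5 CPM, then at 28.1, 27.4 and 25.5 CPM, then at 91.7, 83.7 and 78.5 CPM. Both crossed the parental level without overlap, and ended at 273% and 167% of the H1975 mean. The excess over H1975 was called for LOX (log2 1.45 ± 0.19, edgeR adjusted p = 0.00142) and CRIP1 (0.74 ± 0.15, adjusted p = 0.00927) with and without Sample 3a.

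**Figure D2:**
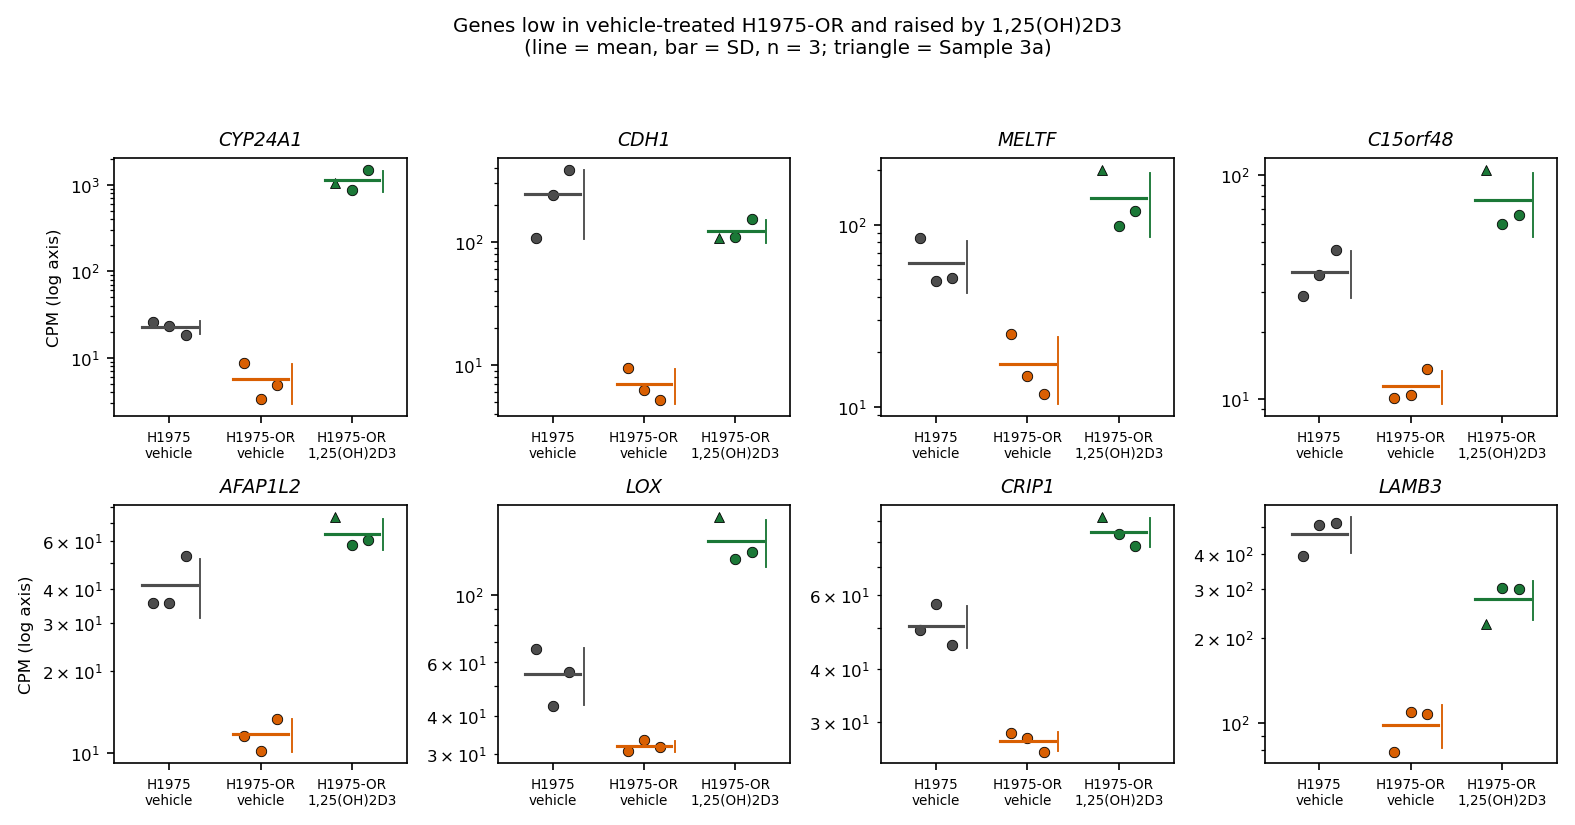
CPM on a log axis of 8 genes that were lower in vehicle-treated H1975–OR than in H1975 and rose with 1,25(OH)2D3, with 1 symbol per library, the mean as a line and the SD as a bar (n = 3), and Sample 3a as a triangle. CDH1 and LAMB3 ended below the H1975 mean (50.7% and 58.4% of it), and the other 6 above it.

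Most genes of the epithelial regulator list were lower in the hormone-treated subline. The list holds genes of epithelial transcription, splicing and membrane traffic, and also ST14, SPINT1, SPINT2, CD24 and MUC1. Of its 14 tested members, 10 were lower than in H1975 after the hormone and 0 higher, with a median log2 fold change of −2.39. Over all genes the median was 0.06, with 8.57% lower and 8.06% higher. With vehicle 9 of the 14 were lower, 8 of them in common, and within H1975–OR the hormone raised none of them past the threshold. The splicing factor ESRP1 was at 37.1, 72.6 and 95.3 CPM in H1975, and 1 count was left in the 3 hormone-treated libraries together against 1081 in H1975, a ratio of 1080 (95% counting interval 193 to 42600). GRHL2, a grainyhead transcription factor of epithelia, had 0 counts against 722 and was at least 80.6-fold lower, the bound being set by a floor of 3 counts over the group. ST14, a membrane protease also called matriptase, measured 36.6, 83.9 and 106 CPM in H1975 and 2.27, 1.09 and 0.56 CPM after the hormone (log2 fold change −5.79 ± 0.57, edgeR adjusted p = 0.000282). OVOL1, SPINT1, AP1M2, ELF3, KLF5 and RAB25 were also called lower. Without Sample 3a, 11 of 15 were lower, AP1M2 no longer among them, and without Sample 1b or 1c 6 were called.

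Of 20 tested genes of adherens and tight junctions, 6 were lower, 0 were higher and 14 were not called, with a median of −0.67, and 12 of the 20 had fold changes below 0. Over all genes 8.57% were lower and 8.06% higher. Without Sample 3a, 6 of 21 were lower and 0 higher. With vehicle 7 of the 20 were lower and 0 higher in the fit of 9 libraries, 5 of them in common. Within H1975–OR CDH1 was the only one of them that the hormone raised past the threshold. EPCAM (chr2:47345158-47387601), an adhesion molecule of epithelia, was at 75.4, 172 and 207 CPM in H1975, at 12.8, 9.398 and 12.8 CPM with vehicle and at 9.398, 7.59 and 7.32 CPM with 1,25(OH)2D3. Its hormone-treated libraries were no higher than the vehicle-treated ones, and the log2 difference from H1975 was −4.22 ± 0.37 (edgeR adjusted p = 0.000178). CLDN4, a tight junction claudin, was at 166, 359 and 523 CPM in H1975, at 39.9, 65.8 and 52.9 CPM with vehicle and at 94.1, 107 and 79.8 CPM with the hormone. The hormone-treated libraries of CLDN4 all lay above the vehicle-treated ones, but the log2 difference of 0.82 between them was not called (adjusted p = 0.647), and the gene was still lower than in H1975 (−1.90 ± 0.37, adjusted p = 0.0079 by edgeR). NECTIN4, CLDN7, CTNNB1 and OCLN were the other 4 called lower.

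Among 8 desmosome genes 1 was higher and 1 lower with and without Sample 3a, which is near the 8.06% and 8.57% of all genes. PPL (periplakin) was higher in the subline (log2 1.58), and PKP3 (plakophilin 3) was lower (−1.31). Both had been called in the same direction with vehicle. Of 10 keratins, KRT19 was lower, with 1040, 1228 and 1166 CPM in H1975 and 356, 498 and 621 CPM after the hormone (−1.22 ± 0.28, edgeR adjusted p = 0.016), KRT81 was lower and KRT16 was higher. That is 10% higher and 20% lower, beside the same shares of all genes. With vehicle 3 of the 10 were lower and 0 higher, and KRT19 was at 212, 422 and 395 CPM. KRT16 lost its call without Sample 3a (edgeR adjusted p = 0.0609), as did KRT81, and no keratin was called without Sample 1b or without 3b. In the fit without Sample 3a, 2 keratins were lower and 0 higher. Of 12 laminin-332 and epithelial integrin genes 3 were lower, among them LAMB3 and ITGB6, the latter with 0 counts against 669 in H1975 and so at least 75.3-fold lower. Without Sample 3a, 3 were again lower and 1 was higher. With vehicle 4 of the 12 were lower and 0 higher in the fit of 9 libraries, 3 of them in common.

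Of 26 tested mesenchymal and matrix genes, 9 were higher, 2 were lower and 15 were not called, with a median of 0.95. The 34.6% higher and 7.69% lower stood against 8.06% and 8.57% of all genes. Without Sample 3a, 12 were higher and 1 lower, PLAU having lost its call. With vehicle 7 of the 26 were higher and 3 lower in the fit of 9 libraries, with a median of 0.28. Of the members called with the hormone, 6 had been called in the same direction with vehicle. A further 4 had not been called with vehicle, and 1, LOX, was reversed. Another 3 vehicle calls were no longer called with the hormone. COL3A1 (chr2:188974373-189012746), a fibrillar collagen, was at 0.52, 0 and 0 CPM in H1975, at 17.4, 89.4 and 56.6 CPM in the subline with vehicle and at 30.0, 147 and 100 CPM with the hormone, so that 3 counts stood against 1397, a ratio of 467 (95% counting interval 160 to 2270). SPARC, a collagen-binding matrix protein, measured 172, 133 and 88.8 CPM in H1975 and 584, 1142 and 959 CPM after the hormone (2.77 ± 0.35, edgeR adjusted p = 0.00102), a level its vehicle-treated libraries had already reached (547, 1011 and 872 CPM). COL5A1, COL6A1, TNC, TIMP2, CTGF, LOX and COL1A1 completed the 9. The 2 that were lower were FN1 and PLAU, the latter the urokinase gene. FN1, which encodes fibronectin and is usually listed among mesenchymal genes, was at 512, 668 and 957 CPM in H1975, at 66.2, 52.9 and 51.1 CPM with vehicle and at 234, 167 and 127 CPM with the hormone (−2.02 ± 0.28 against H1975, adjusted p = 0.00171 by edgeR). VIM (vimentin) was at 3046, 2602 and 2198 CPM in H1975 and at 3379, 3883 and 4857 CPM after the hormone. Its log2 difference of 0.63 was called without Sample 3a (edgeR adjusted p = 0.0298) but not with it (0.0676). From vehicle to hormone within H1975–OR, VIM was not called (edgeR adjusted p = 0.906), with log2 changes of −0.0334 to 0.236 over the settings.

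Of 5 EMT transcription factors, ZEB2 was higher, with a mean of 6.62 ± 1.33 CPM in H1975 and 33.2 ± 0.79 CPM in hormone-treated H1975–OR (SD, n = 3). With vehicle ZEB2 was at 32.8 ± 3.08 CPM. SNAI1 and SNAI2 were lower (log2 −0.94 and −1.16). Thus 1 of the 5 was higher and 2 lower, against 8.06% and 8.57% of all genes. With vehicle 1 was higher and 1 lower, and both calls remained with the hormone. SNAI2 stood at 16.7, 23.3 and 21.8 CPM in H1975 and at 10.2, 8.68 and 8.64 CPM after the hormone. Without Sample 3a, 2 factors of 6 tested were higher and 2 lower, and without Sample 1b, 1c, 3b or 3c only 1 of the 5 was called.

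**Figure D3:**
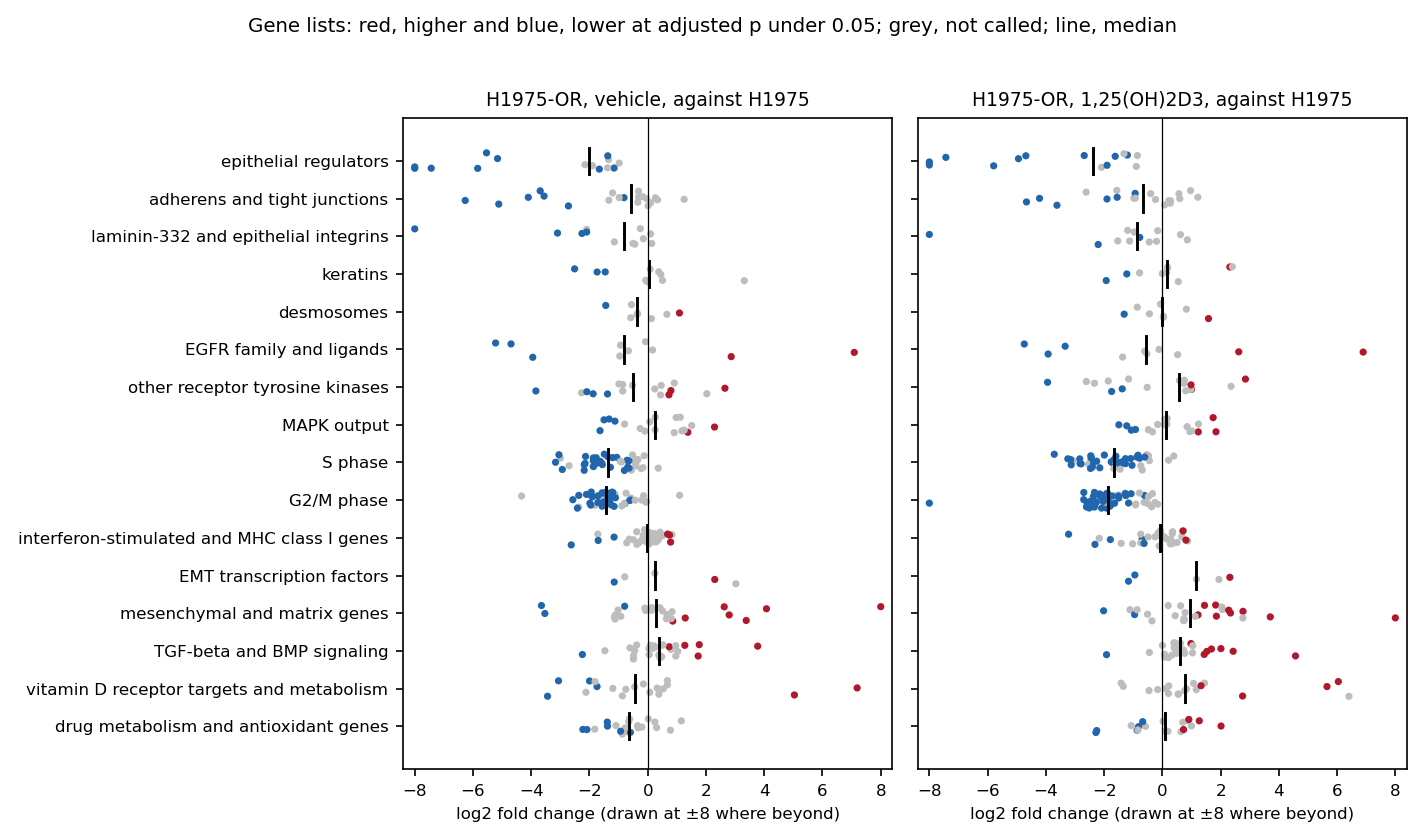
Log2 fold changes against H1975 of vehicle-treated H1975–OR (left panel) and of the 1,25(OH)2D3-treated subline (right panel) for the members of the gene lists, drawn at 8 or −8 where beyond, 1 point per gene, red for higher and blue for lower at an adjusted p under 0.05, grey for not called, and a line at the median. Epithelial regulators (10 of 14 lower) and both cell cycle lists (31 of 43 and 39 of 52 lower) lie to the left in the right panel, and mesenchymal genes (9 of 26 higher) to the right.

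The largest number of called members was found in the cell cycle lists. Of 43 genes of S phase, 31 were lower after the hormone and 0 higher, with a median of −1.65, and 27 of the 31 had been lower with vehicle too. Of 52 genes of the G2 and M phases, 39 were lower and 0 higher, with a median of −1.86, and 35 had been lower with vehicle. Of all genes 8.57% were lower and 8.06% higher. Without Sample 3a, 30 and 40 were lower and 0 higher. In 44 of the 52 every hormone-treated library was below every H1975 library, a pattern that 18.4% of all genes showed. None of these genes was called between hormone and vehicle within H1975–OR, where the medians were −0.29 and −0.41. CDK1, the mitotic kinase, was at 179, 179 and 169 CPM in H1975, at 66.4, 29.2 and 37.5 CPM with vehicle and at 32.4, 28.0 and 20.8 CPM with the hormone (−2.70 ± 0.30 against H1975, edgeR adjusted p = 0.000524). UBE2C, a ubiquitin-conjugating enzyme of the anaphase-promoting complex, was at 160, 144 and 143 CPM, then at 51.5, 55.8 and 56.4 CPM, then at 30.5, 25.0 and 31.0 CPM, with 3 separate groups. Its step from vehicle to hormone was −0.92 on the log2 scale with an edgeR adjusted p of 0.0562. CCNE2, cyclin E2, fell furthest among the S phase genes, from 39.7, 50.02 and 51.8 CPM in H1975 to 5.35, 3.04 and 2.25 CPM (−3.71 ± 0.38, adjusted p = 0.000342 by edgeR). MKI67 changed its call with Sample 3a. It measured 337, 200 and 443 CPM in H1975 and 256, 58.6 and 31.4 CPM in Samples 3a, 3b and 3c, and it was called lower without Sample 3a (edgeR adjusted p = 0.00419) and not with it (0.156).

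Signaling genes were mixed. EGFR did not pass the test (log2 −0.12, edgeR adjusted p = 0.783). Of 10 genes of the EGFR family and its ligands, ERBB3, AREG and EREG were lower and HBEGF and ERBB4 higher, and all 5 had been called in the same direction with vehicle. The 30% lower and 20% higher stood against 8.57% and 8.06% of all genes. Without Sample 3a, 2 of 11 were higher and 4 lower. ERBB3, the receptor that couples to PI3-kinase, was at 19.2, 47.3 and 97.0 CPM in H1975 and at 3.73, 0.22 and 1.88 CPM after the hormone. EREG (epiregulin) was at 32.9, 90.8 and 97.0 CPM in H1975, at 1.24, 2.30 and 4.86 CPM with vehicle and at 3.73, 3.04 and 7.70 CPM with 1,25(OH)2D3 (−3.92 ± 0.58 against H1975, edgeR adjusted p = 0.00235). HBEGF, another EGFR ligand, was on average at 28.4 ± 7.27 CPM in H1975, at 207 ± 91.6 CPM with vehicle and at 175 ± 86.7 CPM with the hormone (SD, n = 3). ERBB4 had 0 counts in H1975 and 44 in the hormone-treated libraries, at least 5.07-fold higher.

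Of 18 genes of MAPK output, 3 were higher (SPRY1, SPRY2 and EPHA4) and 4 lower (DUSP4, DUSP5, PHLDA1 and FOSL1), against 8.06% and 8.57% of all genes, and without Sample 3a 4 were higher and 4 lower. Without Sample 1b, 4 of the 18 were called. With vehicle 3 of the 18 were higher and 4 lower in the fit of 9 libraries, 6 of them in common with the hormone calls. Of 17 other receptor tyrosine kinases, FGFR1, INSR and PDGFRB were higher and MET, MERTK and MST1R lower. That is 17.6% in each direction, beside the same 8.06% and 8.57% of all genes. Without Sample 3a the number lower was 6 with 3 higher, and the median moved from 0.59 to −0.01, while without Sample 1c only 3 members were called. With vehicle 3 of the 17 were higher and 4 lower in the fit of 9 libraries (median −0.52), 6 of them in common with the hormone calls. MET, the hepatocyte growth factor receptor, was at 669, 797 and 964 CPM in H1975, at 354, 157 and 152 CPM with vehicle and at 345, 202 and 179 CPM with the hormone, so its hormone-treated and vehicle-treated libraries overlapped throughout (−1.74 ± 0.37 against H1975, edgeR adjusted p = 0.0119). AXL did not pass the test (log2 0.74, edgeR adjusted p = 0.087).

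Of 27 genes of TGF-beta and BMP signaling, 7 were higher (INHBA, INHBB, NOG, SMAD6, BAMBI, BMPR2 and LTBP2) and LTBP1 was lower. These are 25.9% and 3.7%, against 8.06% and 8.57% of all genes. The numbers were again 7 and 1 without Sample 3a, where BMPR2 was not called, and 5 members were called without Sample 1a, 1b or 3b. With vehicle 5 of the 27 were higher and 1 lower in the fit of 9 libraries, 5 of them in common with the hormone calls. INHBA, an activin subunit, was at 7.83, 1.09 and 1.02 CPM in H1975, at 51.7, 44.3 and 43.7 CPM with vehicle and at 89.0, 72.9 and 80.7 CPM with the hormone (4.57 ± 0.61, edgeR adjusted p = 0.00142). SMAD6, an inhibitory SMAD, was at 11.5, 10.4 and 11.2 CPM in H1975 and at 40.8, 49.0 and 43.6 CPM after the hormone (2.01 ± 0.25, adjusted p = 0.001 by edgeR).

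Of 19 tested genes of the vitamin D list, which holds known VDR targets and enzymes of the hormone's metabolism, 4 were higher than in H1975 after 1,25(OH)2D3 and 0 lower, with a median log2 fold change of 0.77. Over all genes 8.06% were higher and 8.57% lower. Without Sample 3a, 6 of 20 were higher and 0 lower. With vehicle 2 were higher and 4 lower, and the median was −0.45. The 4 were CYP24A1, SEMA3B, THBD and IGFBP5. THBD (thrombomodulin) was at 2.09, 1.09 and 2.44 CPM in H1975, at 2.48, 2.72 and 2.14 CPM with vehicle and at 11.2, 11.5 and 15.6 CPM with the hormone. Its hormone-treated libraries lay above all others (2.76 ± 0.42 against H1975, edgeR adjusted p = 0.00295), but the rise from vehicle did not pass the test (adjusted p = 0.0934). IGFBP5 was already at 81.7, 92.7 and 82.0 CPM with vehicle, against 4.18, 1.27 and 2.24 CPM in H1975, and at 198, 163 and 154 CPM with the hormone. CAMP, the cathelicidin gene and a classic VDR target, had 0 counts in H1975, 52 in vehicle-treated and 31 in hormone-treated H1975–OR, and was not called against H1975 with Sample 3a (edgeR adjusted p = 0.056).

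Of the 750 genes called against H1975 with the hormone only, 7 had also risen between hormone and vehicle. These were COL1A1, SEMA3B, LTBP2, ONECUT2, GDPD5, CTSD and ADGRE5, and LTBP2 and GDPD5 also showed this pattern without Sample 3a. The rises from vehicle were the less stable part. None of the 7 was called without Sample 1a, 1b, 1c, 2b or 2c or with the 2 H1975–OR groups alone, and LTBP2 and GDPD5 passed in 8 of 20 alternatives each. The differences from H1975 were called in every alternative for 6 of the 7, and for SEMA3B in all except without Sample 1b. COL1A1, the alpha 1 chain of type I collagen (chr17:50184101-50201632), was at 14.6, 17.3 and 31.1 CPM in H1975, at 9.92, 8.77 and 10.1 CPM with vehicle and at 565, 154 and 100 CPM in Samples 3a, 3b and 3c. Sample 3a set the size of this difference, since the mean was 1300% of that of H1975 with it and 605% without it, but the libraries did not overlap in either case (log2 3.71 ± 0.62, edgeR adjusted p = 0.00428, and 0.00136 without Sample 3a). In the fit without Sample 3a COL1A1 was also called lower in vehicle-treated H1975–OR than in H1975 (adjusted p = 0.0355), and so belonged to the genes that had crossed the parental level.

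LTBP2, a matrix protein related to the latent TGF-beta binding proteins, was at 27.3, 29.5 and 36.0 CPM in H1975, at 22.5, 25.9 and 17.7 CPM with vehicle and at 115, 75.7 and 60.3 CPM with the hormone. CTSD, the lysosomal protease cathepsin D, was at 521, 694 and 733 CPM, then at 395, 636 and 572 CPM, then at 1428, 1430 and 1556 CPM. ADGRE5 (CD97), an adhesion G protein-coupled receptor, was at 92.6, 76.6 and 108 CPM, then at 92.4, 134 and 137 CPM, then at 318, 284 and 313 CPM. For all 3 the hormone-treated libraries were above both other groups, which overlapped for CTSD and ADGRE5, while for LTBP2 the vehicle-treated libraries were the lowest. GDPD5, a phosphodiesterase of glycerophosphodiester lipids and GPI anchors, was at 15.5, 18.7 and 18.5 CPM in H1975, at 15.1, 25.7 and 26.0 CPM with vehicle and at 57.5, 74.2 and 74.5 CPM with the hormone (edgeR adjusted p = 0.000966 against H1975 and 0.0423 against vehicle). SEMA3B, a secreted semaphorin, was at 35.5, 30.9 and 42.7 CPM in H1975 and at 113, 88.5 and 72.3 CPM after the hormone, and ONECUT2, a homeobox transcription factor, was at 8.88, 8.19 and 13.0 CPM and then at 49.9, 44.9 and 46.8 CPM. Against H1975 the edgeR adjusted p was 0.00599 for LTBP2, 0.00486 for CTSD, 0.000513 for ADGRE5, 0.0118 for SEMA3B and 0.000734 for ONECUT2, and all were still under 0.05 without Sample 3a. The rise from vehicle, called at adjusted p = 0.0307 for each of these 5, fell short without Sample 3a for SEMA3B (0.0613), ONECUT2 (0.0633), CTSD (0.0521) and ADGRE5 (0.0613).

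The 17th gene, NTNG2 (netrin G2, an adhesion protein of the netrin family), fell outside these patterns. It was at 0.17, 0.73 and 0.61 CPM in H1975, at 2.69, 3.13 and 3.89 CPM with vehicle and at 19.1, 26.0 and 40.4 CPM with the hormone, so that the hormone carried it further from H1975 in the direction in which the subline already differed (log2 5.77 ± 0.52 against H1975, edgeR adjusted p = 0.000192).

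Among the called genes with at least 50 CPM as the mean of the higher group and no overlap between libraries, 582 were higher and 658 lower. Absence of overlap alone was seen for 18% of all genes in the upward and 18.4% in the downward direction. The 15 largest rises held matrix and secreted proteins, among them COL3A1, MFAP4, ABI3BP, COL4A4, IGFBP5, IGFBP7 and INHBA, and surface proteins such as ALPP, L1CAM and SDC2. ALPP, placental alkaline phosphatase, whose reads can be shared with its close paralogs, was at 1.39, 2.18 and 1.42 CPM in H1975, at 41.3, 34.5 and 45.7 CPM with vehicle and at 122, 52.7 and 65.9 CPM with the hormone. SDC2, syndecan 2, was at 16.0, 10.0 and 7.52 CPM in H1975, at 174, 117 and 130 CPM with vehicle and at 123, 143 and 162 CPM with the hormone. ABI3BP measured 205, 18.7 and 7.32 CPM in Samples 3a, 3b and 3c, and L1CAM 144, 20.4 and 12.4 CPM, so both owed most of their mean to Sample 3a. Neither was called between the lines with vehicle, and each lost its call when single H1975 libraries were left out.

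The 15 largest falls held ESRP1, ST14, EPCAM, ERBB3, EREG, LAD1, MACC1, MAL2, MLPH and CRYBG1, the last listed as AIM1. LAD1 (ladinin 1, a basement membrane protein) was at 39.2, 74.4 and 98.4 CPM in H1975, at 0 in the 3 vehicle-treated libraries and at 0.49, 0 and 0.19 CPM with the hormone. The 4 counts left stood against 1118, a ratio of 279 (95% counting interval 108 to 1020). AIM1 was at 294, 353 and 420 CPM in H1975, at 19.6, 10.9 and 5.25 CPM with vehicle and at 30.6, 8.68 and 3.19 CPM with the hormone (−4.62 ± 0.72, edgeR adjusted p = 0.00311). In both genes the hormone-treated and the vehicle-treated libraries overlapped. Of the 15 rises 12 were called under every setting tried, and of the 15 falls 14. Their choice as large, called differences without overlap favours this, since the settings reuse nearly the same libraries.

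RefSeq windows were given for 6 of the 15 falls, and 5 of these genes had the E-box CACCTG in one, letters that ZEB and SNAI repressors are known to bind. The window of LAD1 is shown because it belongs to a gene that both treatments of the subline left near 0. On either strand this motif occurs in a window of 20.6% of all genes. Among genes with a window, 3 of 9 of the largest rises and 2 of 6 moved-back genes had it too. Binding was not tested. Capitals mark the 2 E-boxes, and the window is otherwise written as above.
LAD1 (chr1:201399325-201399574, minus strand): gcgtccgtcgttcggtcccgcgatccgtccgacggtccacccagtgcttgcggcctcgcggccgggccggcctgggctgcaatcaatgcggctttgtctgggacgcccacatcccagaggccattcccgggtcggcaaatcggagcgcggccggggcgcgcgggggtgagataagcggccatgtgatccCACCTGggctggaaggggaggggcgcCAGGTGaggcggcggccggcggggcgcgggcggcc

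**Figure D4:**
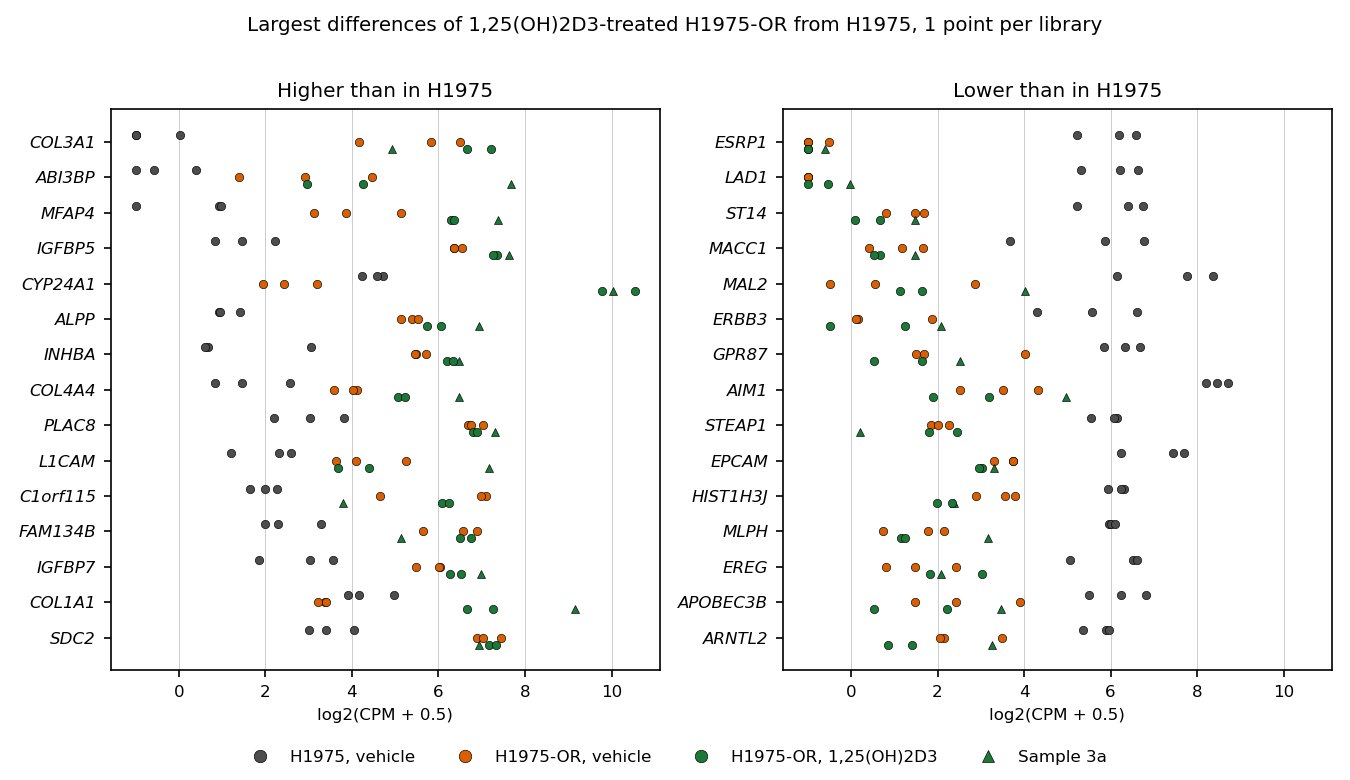
Log2(CPM + 0.5) per library of the 15 genes with the largest rise and the 15 with the largest fall in hormone-treated H1975–OR against H1975, with the vehicle-treated H1975–OR libraries beside them. For most of the 30 genes, such as SDC2 and LAD1, the vehicle-treated libraries already lay with the hormone-treated ones.

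The same hormone was also given to H1975–OR together with 500 nM osimertinib (Samples 5a to 5c) and compared there with osimertinib alone (Samples 4a to 4c). In these libraries 6 genes rose (0.0475% of 12627) and 1 fell (0.00792%). CYP24A1, CDH1, C15orf48, AFAP1L2 and CRIP1 of the 9 moved-back genes were among the 6, with MGP as the sixth, and MTRNR2L1 was the one that fell. CDH1 was at 6.66, 4.91 and 2.45 CPM with osimertinib and at 68.0, 44.4 and 39.6 CPM with both agents, a log2 rise of 3.43 (edgeR adjusted p = 0.0102). MELTF (2.31), LOX (1.31) and LAMB3 (1.11) had log2 differences above 0 that were not called. The difference between the hormone effects with and without osimertinib was called for no gene by edgeR, with 123 genes higher and 183 lower at an unadjusted p under 0.05, and for 4 of 12621 by DESeq2.

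**Figure D5:**
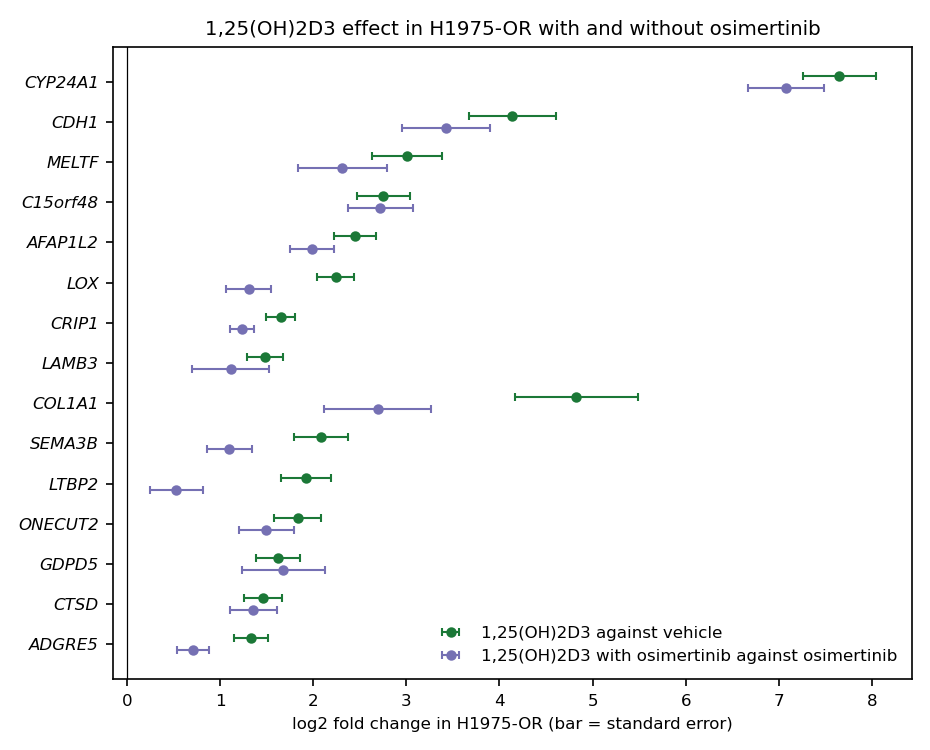
Log2 fold change of 1,25(OH)2D3 in H1975–OR on the horizontal axis, without osimertinib (green) and with it (purple), with standard errors as bars, for 8 moved-back genes and the 7 called with the hormone only. All of these genes lie above 0 in both, CYP24A1 highest at 7.65 and 7.07.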

How the data were processed

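RNA of the 15 cultures was sequenced by the authors from stranded total RNA libraries depleted of ribosomal RNA. The deposited values are estimated counts per gene, which the authors made with Kallisto on hg38 and summarised with tximport, and they are not normalized. The submitters' processing notes name CASAVA 1.8.2, STAR 2.5.2b and kallisto 0.43.0, and the transcript annotation is not given in the sources used here. Kallisto divides reads between similar transcripts, so paralogs are uncertain.

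Whole-number rounding preceded all tests. In R 4.3.3, edgeR 4.0.16 filtered genes with filterByExpr (minimum count 10, minimum total 15), applied TMM factors and ran its quasi-likelihood test in 1 fit of the 9 libraries of 3 groups, with Benjamini-Hochberg adjustment over all genes and a threshold of 0.05. Osimertinib comparisons used a fit of all 15 libraries. CPM values use TMM-scaled library sizes, and ± in CPM is the SD over 3 libraries, elsewhere the SE. The scripts were tested on simulated data. Alternatives were single libraries left out, DESeq2 1.42.0, limma 3.58.1 voom with quality weights, no filter, other scalings and a replicate block.

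The letters a, b and c do not pair H1975 with H1975–OR (correlations of deviations −0.06 to 0.108), but those of vehicle- and hormone-treated H1975–OR correlated at 0.341, 0.193 and 0.23, so that blocked values are given there.

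Genes were named by rule. These were the 15 largest rises and falls among called genes with at least 50 CPM in the higher group and no overlap of libraries, the genes moved back by the hormone, those called against both other groups, list members, and the genes CYP24A1, CAMP, VDR, CDH1, CLDN4, MMP2 and VIM. NTNG2, GEM, RAB27B, RHOF, TNFRSF1A and MTRNR2L1 were named after their values were seen. Phase lists are those of Seurat 5.3.0. Members and lists were chosen with earlier results of these data known. Of 19612 symbols, 19132 matched RefSeq. Some genes that are counted are not reported here by name.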

Additional observations from a re-analysis of the deposited data

How the results depend on the processing

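When single libraries were left out, 990 (without Sample 1b) to 2443 (without 3a) genes were called between 1,25(OH)2D3-treated H1975–OR and H1975, 719 (without 1b) to 2521 (without 3a) between the lines with vehicle, 4 (without 2b) to 19 (without 3a) between hormone and vehicle, and 3 to 11 with osimertinib, with 0 for the difference of the hormone effects. Differences that remained numbered 578 (without 1b) to 1842, those not called with the hormone 93 (without 2b) to 673, reversed ones 3 to 6, moved-back ones 3 to 14, hormone-only ones 409 to 1057, those called against both groups 0 to 4, and called members of the gene lists 116 to 169. Fits of the compared groups alone gave 6 genes between hormone and vehicle, 866 not called with the hormone, 439 hormone-only and 0 against both. A replicate block in the 9 libraries gave 3 against both, and with Sample 3a left out as well 9 genes between hormone and vehicle, 739 not called, 359 hormone-only and 1 against both. The replicate block in the 6 H1975–OR libraries left 3 between hormone and vehicle, and with osimertinib a block raised 7 calls to 20, as leaving out Sample 3a did to 14. DESeq2 gave 115 between hormone and vehicle, 557 not called, 43 moved back, 42 against both, 56 with osimertinib and 4 for the difference. Voom with quality weights, in which Sample 3a had a weight of 0.202 and 2a of 0.531, gave 3887, 3472 and 56 calls for the 3 comparisons, 2773 remaining, 685 not called, 14 reversed, 27 moved back and 18 against both. Without both 3a and 2a, an alternative chosen after seeing the data like the block in 6 libraries, 2835 genes were called between the lines, 2223 remained, 602 were not called, 10 were reversed and 4 called against both. The hormone effect changed sign for CAMP (−1.50 without 3c to 0.0184 without 2c) and VIM (−0.0334 without 3c to 0.236 without 3a, and −0.0207 without 2a), neither of which was called. For single genes, 1153 values kept direction and side of the threshold, 153 lost it, 18 gained it and 3 turned. The median log2 fold change of all genes was 0.0603, and 0.04 with RLE size factors. The cause of these changes was not tested. With 3 libraries a group, fold changes near the floor of 3 counts are uncertain. Genes such as GRHL2, with 0 counts in a group, are given as bounds. For ESRP1, COL3A1 and LAD1 a count ratio is given with its counting interval. Other low genes, such as ST14, have a log2 fold change with its SE.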

Other observations

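Other gene groups of the comparison are given here as values. Of 31 interferon-stimulated and MHC class I genes, 5 were lower in hormone-treated H1975–OR than in H1975 (among them IFI27, IFI44, IFITM1 and PSMB8) and 2 higher (BST2 and HLA-E), against 8.57% lower and 8.06% higher over all genes. Without Sample 3a, 5 were lower and 3 higher. With vehicle 3 were lower and 3 higher in the fit of 9 libraries, 5 of them in common with the hormone calls. IFITM1, an antiviral membrane protein, was at 65.5, 58.0 and 54.7 CPM in H1975, at 16.1, 6.27 and 6.41 CPM with vehicle and at 10.9, 3.47 and 4.51 CPM with the hormone (log2 fold change −3.22 ± 0.49, edgeR adjusted p = 0.00281). HLA-E, a nonclassical class I molecule, was on the other side, with 283, 234 and 241 CPM in H1975 and 417, 474 and 435 CPM with the hormone (0.81 ± 0.14, adjusted p = 0.00513 by edgeR). HLA genes are polymorphic and share reads, so their values are uncertain. PSMB8 lost its call without Sample 3a (edgeR adjusted p = 0.0594).

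Of 21 genes of drug metabolism and antioxidant defence, 4 were higher (among them ALDH3A2, CYP1A1 and CYP1B1) and 5 lower (AKR1B1, ALDH1A3, ABCG2, GCLM and SRXN1), and 3 and 6 of 22 without Sample 3a. Over all genes 8.06% were higher and 8.57% lower. Without Sample 1b 4 of the 21 were called, and without 3b or 3c 5. With vehicle 0 of the 21 were higher and 6 lower in the fit of 9 libraries. The median was −0.65 with vehicle and 0.105 with the hormone. Of the members called with the hormone, 4 had been called in the same direction with vehicle. A further 4 had not been called with vehicle, and 1 was reversed, so none of the higher members was a vehicle call that remained. ABCG2, a drug efflux transporter, was at 72.4, 45.8 and 31.9 CPM in H1975, at 18.6, 17.1 and 21.6 CPM with vehicle and at 5.67, 12.8 and 13.1 CPM with the hormone (−2.25 ± 0.38, edgeR adjusted p = 0.00461). All 3 hormone-treated libraries lay below the vehicle-treated ones, a step that was not called (adjusted p = 0.647). ALDH1A3, a retinaldehyde dehydrogenase, was at 48.9 ± 5.08 CPM in H1975 and at 10.0 ± 3.92 CPM with the hormone (SD, n = 3).

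Of 15 cytokine and chemokine genes, CCL28 and IL7R were higher and IL11 lower, each as with vehicle. These are 13.3% and 6.67%, near the 8.06% and 8.57% of all genes. Without Sample 3a, 2 of 16 were higher and 2 lower, and without Sample 1b 1 was called. IL7R, the interleukin 7 receptor chain, had a mean of 156 ± 11.03 CPM in H1975 and 555 ± 30.8 CPM with the hormone (SD, n = 3, log2 fold change 1.83 ± 0.14, edgeR adjusted p = 9.22e-05). Of 6 tested lung adenocarcinoma identity genes, CEBPA was higher (log2 1.92) and FOXA2 had 0 counts against 100 in H1975, at least 11.2-fold lower. MMP2, a gelatinase, was not called (log2 2.04, edgeR adjusted p = 0.132). None of the 3 tested markers of other cell types was called.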
